A study of Mus musculus with 6 samples.

Results

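The Wnt ligands, their receptors and their secreted inhibitors were followed across liver, ovary and uterus of immature mice with and without BHPF. The genes were chosen by symbol: every Wnt, Frizzled (Fzd), R-spondin (Rspo), secreted frizzled-related (Sfrp) and Dickkopf (Dkk) gene, the R-spondin receptors Lgr4, Lgr5 and Lgr6, the co-receptors Lrp5 and Lrp6, the inhibitor Wif1 and the feedback gene Axin2, wherever a probe was well above background on any array. Of the 55681 probes on the array that are not controls, 56 carried such a symbol, for 48 of the 20284 genes that could be named. Detection on any of the 6 arrays held for 49 of these probes and 43 genes: 15 ligands, 3 R-spondins, 10 Frizzleds, 2 co-receptors, 3 R-spondin receptors, 5 decoys (Sfrp1, Sfrp2, Sfrp4, Sfrp5 and Wif1), 4 Dickkopfs and Axin2. Rspo4, Wnt3, Wnt3a, Wnt10a and Wnt10b were not well above background anywhere and are not described further. All 6 arrays measured 27 of the 43 genes.

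Wnt proteins are secreted lipid-modified ligands that bind a Frizzled receptor together with Lrp5 or Lrp6, which stabilises beta-catenin and lets it act with TCF/LEF factors in the nucleus, while other Wnt-Frizzled pairs signal through planar polarity and calcium. R-spondins bind Lgr receptors and keep Frizzled on the cell surface, Sfrp proteins and Wif1 bind the ligands outside the cell, and most Dickkopfs block the co-receptors. In the uterus the pathway patterns the Muellerian duct and its glands, in the ovary it acts in sex determination and follicle growth, and in the liver it sets the gene programme of the hepatocytes around the central vein.

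BHPF, fluorene-9-bisphenol, is a substitute for bisphenol A in plastics. Female CD-1 mice, 24 days old by the labels, which name no genotype, received it by gavage at 50 mg/kg body weight each day for 3 days, and the controls received the vehicle, peanut oil. Liver, ovary and uterus of each treatment gave 1 Agilent array each, labelled with Cy3 and hybridized with RNA mixed from 3 mice, so that the spread between animals was not measured. A level is the log2 intensity of a gene minus the 75th percentile of its array, a log2 ratio is the BHPF level minus the control level of the same tissue, and the probes of 1 gene were averaged. Whole organs were used, so fewer cells of a type and less RNA per cell cannot be told apart.

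Between 61.4% and 74.6% of the probes were well above background, and a level at the detection limit lay between -6.33 and -4.91 depending on the array. Single spots of repeated probes varied with a SD of 0.0875 to 0.102 on the log2 scale, which gives a ratio an SD of 0.130 to 0.138 from spot noise alone. All arrays shared 1 slide and 1 scan, and the control and BHPF arrays occupied different positions on it, so position and treatment cannot be told apart. Of 15 hepatocyte markers, 15 were higher on the BHPF uterus array than on the control uterus array, with a summed linear level of 45.2 against 2.77 (500.5 on the control liver array). Their median stood at 6.51% of the control liver level on the BHPF uterus array and at 0.202% on the control uterus array. The tissue labels held: all 15 hepatocyte markers were higher in liver than in uterus, 14 of 15 ovary markers were higher in ovary than in uterus, and 8 of 10 uterus markers were higher in uterus than in ovary (limma, adjusted p under 0.05).

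**Figure D1:**
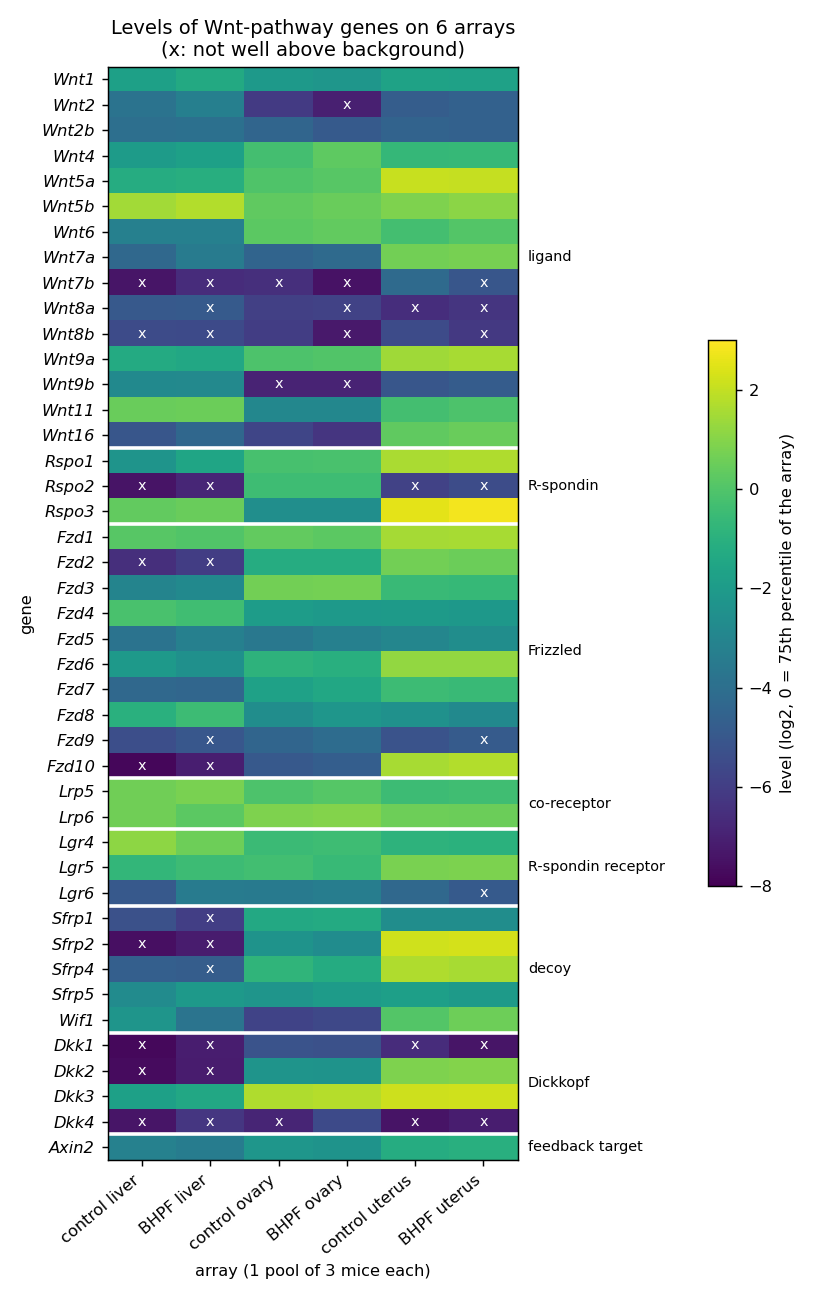
Levels of the 43 genes (rows, by role) on the 6 arrays (columns), as log2 intensity with 0 at the 75th percentile of the array; a cross marks a gene not well above background on that array. Sfrp2, with 2.19 and 2.29 in uterus and -2.33 and -2.66 in ovary, is a row that changes with tissue, and Lgr6, with -4.93 and -3.44 in liver, is one that differs between the control and BHPF arrays.

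The first question was where each component of the pathway was expressed. The 5 genes of the set with the highest control level were Wnt5b, Lgr4, Lrp6, Lrp5 and Wnt11 in liver (levels 0.48 to 1.5), Dkk3, Lrp6, Fzd3, Fzd1 and Wnt5b in ovary (0.32 to 1.70) and Rspo3, Sfrp2, Dkk3, Wnt5a and Sfrp4 in uterus (1.67 to 2.57). Probes differ in brightness for the same amount of RNA, so the order within a tissue carries no weight. Tissues were compared gene by gene with limma over the 6 arrays, with terms for tissue and treatment, adjusted over 38439 genes and unnamed probes. In the uterus 19 of the 43 genes were higher than in both other tissues, in the liver 7 and in the ovary 4. Of everything tested, 9.22% was highest in this way in uterus, 23.3% in liver and 9.13% in ovary. Because a gene could enter through a single bright tissue, the 27 genes measured on all arrays were also taken alone: 13 of them (48.1%) were higher in uterus than in both other tissues, 6 in liver and 2 in ovary, beside 8.16%, 29.1% and 7.25% of the 26662 features measured on all arrays. Detection was judged per gene, so a probe detected in fewer tissues could still contribute to a call. Among the 13 is Fzd7, whose probe measured on all arrays was not called between uterus and ovary (0.52, limma, adjusted p = 0.146). Wnt16 is among them too, and its probe measured on all arrays was called against both other tissues. All of these counts treat the control and BHPF arrays of a tissue as its 2 samples.

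Uterus and ovary differed at adjusted p under 0.05 in 28 of the 43 genes, 23 of them higher in uterus and 5 higher in ovary (18.1% and 14.1% of all features, 32.2% together). Uterus and liver differed in 33 genes, 25 higher in uterus and 8 higher in liver (29.3% and 27.8%, together 57.1%). Ovary and liver differed in 32, 20 higher in ovary and 12 higher in liver (30.1% and 31.8%, together 61.9%). In 3, 6 and 7 of these calls, in the order given, 1 tissue was below background on both arrays. The direction of such a call follows from detection. For 1 more call between uterus and liver, Rspo2, both tissues were below background. All features passed the same filter, and their calls were not split in this way. Each of the called differences had the same direction between the 2 control arrays and between the 2 BHPF arrays. Opposite directions would have hindered a call from these same arrays, so this is no independent support. Without the BHPF ovary array, the uterus and ovary difference was called in 19 genes, and without either liver array in 35.

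**Figure D2:**
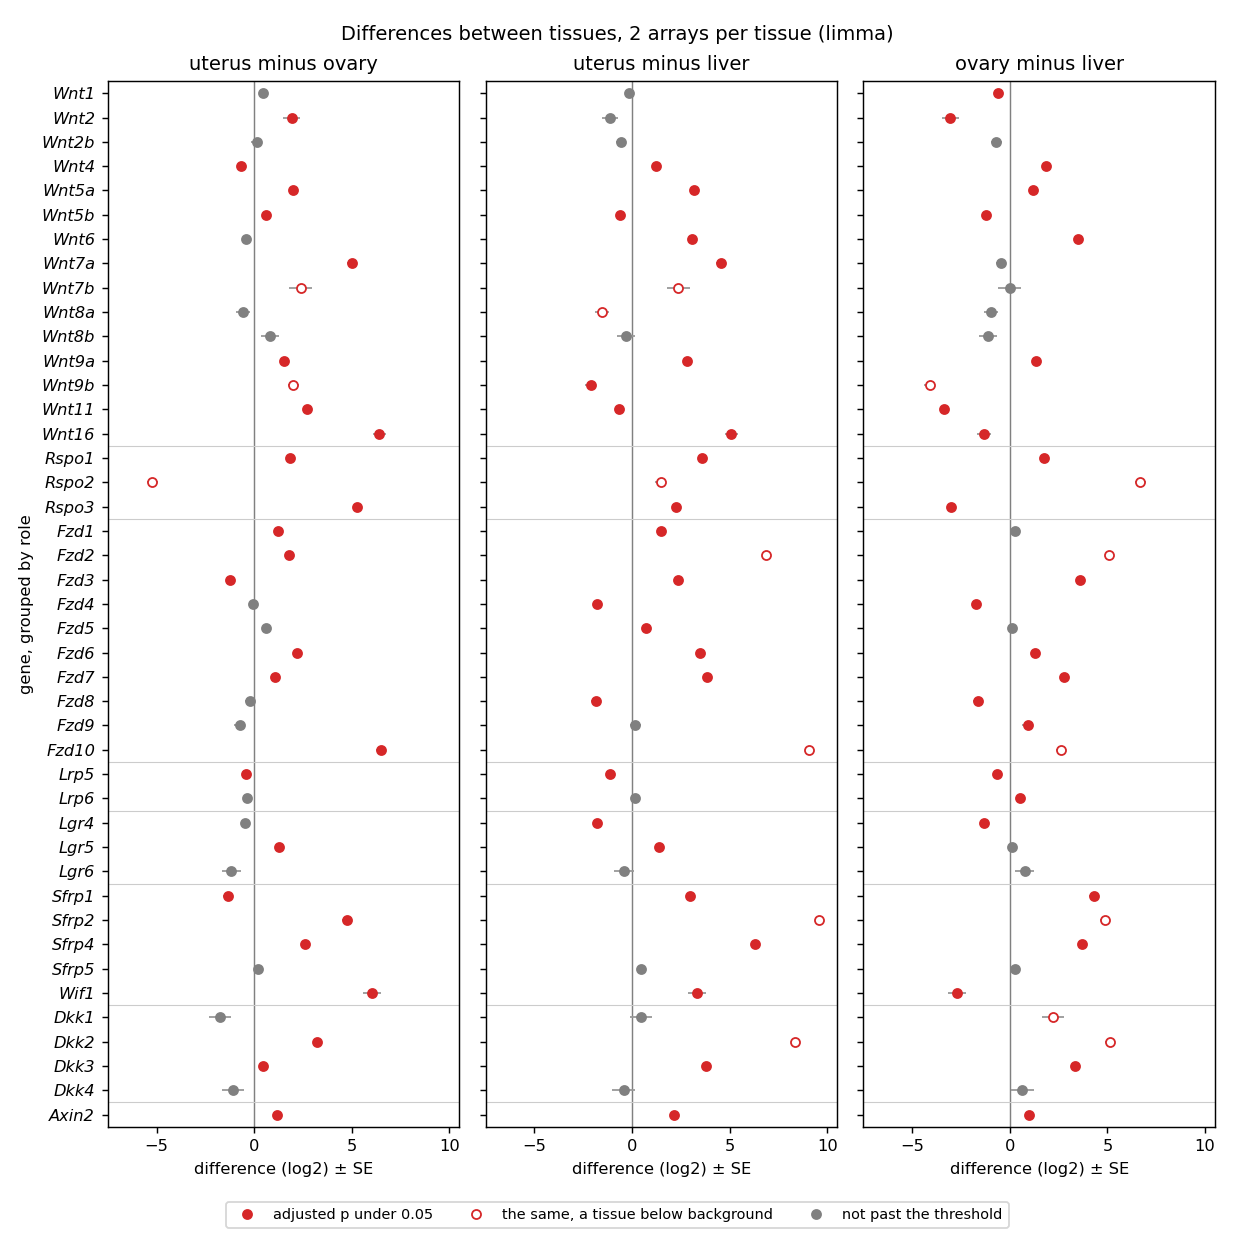
Differences in log2 level between tissues (panels) for the 43 genes (rows, by role), with bars of 1 SE from limma; red points have an adjusted p under 0.05, and open red points have a tissue in which the gene was not well above background on either array. For uterus minus ovary, Fzd10 (6.49), Wif1 (6.04), Rspo3 (5.26) and Wnt7a (5.01) lie far to the right and Rspo2 to the left (-5.22), and Wnt16 is drawn at 6.41, the mean of its probes, where its probe measured on all arrays gave 4.75.

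Among the ligands, Wnt5a, Wnt7a, Wnt9a and Wnt16 were measured in uterus on both arrays and were higher there than in both other tissues. Wnt7a, which the uterine epithelium makes and which patterns the female reproductive tract, had control and BHPF levels of 0.64 and 0.75 in uterus, -4.45 and -4.18 in ovary and -4.28 and -3.40 in liver (levels are given in this order, control first, throughout). The uterus arrays stood apart from the other 4, which overlapped each other. Uterus exceeded ovary by 5.01 (SE 0.23), or 32.3-fold (limma, adjusted p = 0.000112), and liver by 4.54 (SE 0.23, adjusted p = 4.17e-05), while ovary and liver differed by -0.48 (SE 0.23, adjusted p = 0.126). Wnt5a, a mesenchymal ligand that mostly signals without beta-catenin, lay at 2.06 and 2.04 in uterus, -0.04 and 0.13 in ovary and -1.17 and -1.12 in liver. The 3 tissues did not overlap, with uterus 4.0-fold above ovary (adjusted p = 0.000226) and ovary 2.29-fold above liver (limma, adjusted p = 0.000381).

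Wnt16 is a ligand best known from bone, joint and skin. Its levels were 0.32 and 0.49 in uterus, -5.69 and -6.32 in ovary and -5.05 and -4.32 in liver. These are means of 2 probes, of which 1 was well above background in uterus alone. The mean put the uterus 6.41 above the ovary and 5.09 above the liver. The probe that was well above background on every array lay at -0.19 and -0.04 in uterus, -4.85 and -4.90 in ovary and -3.89 and -3.53 in liver. By it the uterus exceeded the ovary by 4.75 (SE 0.20, limma, adjusted p = 5.69e-05) and the liver by 3.59 (12.1-fold, adjusted p = 3.46e-05). Wnt9a, a ligand of the beta-catenin branch, was 2.86-fold higher in uterus than in ovary and 7.13-fold higher than in liver (limma, adjusted p = 0.000765 and 3.04e-05). Wnt7b is also among the 19 genes counted for uterus, but it was well above background only on the control uterus array, at -4.18, so the direction of its difference follows from how it entered the set.

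Other ligands were highest in liver or ovary. Wnt2 and Wnt9b are the ligands of the endothelium around the central vein. Wnt9b lay at -2.79 and -2.81 in liver, -5.05 and -4.78 in uterus, and was not well above background in ovary (measured -6.91 and -6.92), which made liver 4.33-fold higher than uterus (limma, adjusted p = 0.00144) and at least 9.40-fold higher than ovary (adjusted p = 0.000105). Here and below, the p-value beside an "at least" fold belongs to the difference of the measured values. The lower place of an undetected tissue follows from how a gene entered the set. Wnt2 lay at -3.81 and -3.24 in liver, -4.75 and -4.57 in uterus and -6.13 and -7.02 in ovary, the last of these not well above background. The difference of ovary minus liver was -3.05 (SE 0.42, limma, adjusted p = 0.00145), or -2.41 with the undetected value set to the detection limit and -1.96 with normexp background correction, and that of uterus minus liver -1.14 (SE 0.42, adjusted p = 0.0630). Wnt11, which guides cell movement, was higher in liver (0.48 and 0.53) than in uterus (-0.29 and -0.07) and lowest in ovary (-2.89 and -2.89), with adjusted p = 0.00738 for uterus minus liver (not called without the control uterus array) and 2.03e-05 for ovary minus liver. Wnt5b had the same order, 1.5 and 1.74 in liver, 0.86 and 1.1 in uterus and 0.32 and 0.47 in ovary. Wnt4, needed for the female gonad, was highest in ovary, at -0.27 and 0.27 against -0.69 and -0.62 in uterus and -1.97 and -1.75 in liver. The ovary and uterus arrays did not overlap, but their difference was small (-0.65, SE 0.16, limma, adjusted p = 0.0299) and was not called when the control ovary, BHPF ovary or BHPF uterus array was left out (adjusted p = 0.0797 to 0.289). Wnt6 lay at 0.24 and 0.35 in ovary and -0.29 and 0.06 in uterus, without overlap but not past the threshold (-0.41, SE 0.15, limma, adjusted p = 0.0929), and both were higher than liver (-3.20 and -3.19). The 4 remaining ligands, Wnt1, Wnt2b, Wnt8a and Wnt8b, were not called between uterus and ovary (adjusted p = 0.146 to 0.749). Wnt1 lay between -2.23 and -1.30 on all arrays and Wnt2b between -4.87 and -3.92. Ovary minus liver was called for Wnt1, but its 2 probes gave -1.41 (limma, adjusted p = 0.00388) and 0.20 (adjusted p = 0.359). Wnt8a and Wnt8b were near the detection limit, and the called difference of Wnt8a, uterus minus liver (-1.54, limma, adjusted p = 0.0141), was lost without either uterus array (adjusted p = 0.0809 and 0.109).

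The start regions of 27 of the 43 genes are held in a RefSeq table of promoters (GRCm38.p6), in 30 windows that run from 250 bases before to 50 bases after a start site. They were searched on both strands for the TCF/LEF core CTTTGAT, for the oestrogen response element (GGTCA and TGACC with any 3 bases between) and for its arm TGACC, which also lies inside the full element. The core was present in 2 of the 30 windows, 1 of Wnt11 and 1 of Wnt5b, and in 3.73% of all 32851 windows. Wnt11 also has a window at another start site (upstream part chr7:98838595-98838844, plus strand) that held no core. The full element was present in no window of the set and in 0.0700% of all, and the arm in 15 of the 30 windows and in 40.5% of all. The 250 bases upstream are given for 1 of the 2 ligands with a TCF/LEF core, both of them highest in liver (Wnt11, chr7:98834862-98835111, plus strand), for a ligand and a receptor that were much higher in uterus than in ovary (Wnt16, chr6:22287977-22288226, plus strand, and Fzd10, chr5:128600856-128601105, plus strand) and for the 2 genes that differed by 2-fold or more between the BHPF and control liver arrays (Lgr6, chr1:135105277-135105526, minus strand, and Wif1, chr10:121033754-121034003, plus strand). They read from 5′ to 3′ towards the start site, and capitals mark a match on either strand.
Wnt11: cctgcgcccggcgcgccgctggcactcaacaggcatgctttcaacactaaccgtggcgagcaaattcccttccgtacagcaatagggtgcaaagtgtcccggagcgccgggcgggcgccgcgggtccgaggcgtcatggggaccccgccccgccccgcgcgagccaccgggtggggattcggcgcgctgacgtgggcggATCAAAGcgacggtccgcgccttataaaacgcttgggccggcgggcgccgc
Wnt16: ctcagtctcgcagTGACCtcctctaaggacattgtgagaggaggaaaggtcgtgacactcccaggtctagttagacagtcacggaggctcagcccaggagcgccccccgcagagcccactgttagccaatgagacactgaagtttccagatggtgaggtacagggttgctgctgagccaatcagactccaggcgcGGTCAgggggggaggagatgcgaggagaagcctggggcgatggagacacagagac
Fzd10: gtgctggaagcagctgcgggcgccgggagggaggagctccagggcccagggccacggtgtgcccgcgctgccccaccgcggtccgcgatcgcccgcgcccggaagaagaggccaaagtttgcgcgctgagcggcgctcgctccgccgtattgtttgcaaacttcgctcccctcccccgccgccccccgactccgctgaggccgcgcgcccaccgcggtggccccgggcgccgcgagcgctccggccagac
Lgr6: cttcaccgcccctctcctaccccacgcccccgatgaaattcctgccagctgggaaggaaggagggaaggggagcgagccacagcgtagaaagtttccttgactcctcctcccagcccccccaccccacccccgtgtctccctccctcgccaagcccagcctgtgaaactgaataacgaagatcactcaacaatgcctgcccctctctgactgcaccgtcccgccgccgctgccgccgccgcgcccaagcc
Wif1: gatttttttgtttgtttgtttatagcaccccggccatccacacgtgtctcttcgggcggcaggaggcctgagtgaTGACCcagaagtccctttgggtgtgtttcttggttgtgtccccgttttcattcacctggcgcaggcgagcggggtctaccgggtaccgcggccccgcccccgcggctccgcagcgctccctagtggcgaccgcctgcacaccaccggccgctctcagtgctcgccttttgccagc
The match in Wnt11, ATCAAAG, began at -51 from the start site and is the core on the opposite strand. Wnt16 held 2 matches to the arm, at -237 and -55 from its start, and Wif1 held 1, at -175. None of the 3 motifs was found upstream of Fzd10 or Lgr6. GC made up 76.4% of the Fzd10 window, 70.8% of that of Wnt11, 65.2% of that of Lgr6, 62.8% of that of Wif1 and 59.2% of that of Wnt16.

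The 3 measured R-spondins each had their own pattern. Rspo3, which the endothelium of the central vein supplies in the liver, lay at 2.57 and 2.79 in uterus, 0.38 and 0.47 in liver and -2.58 and -2.58 in ovary. No 2 tissues overlapped, and uterus exceeded ovary 38.2-fold (5.26, SE 0.12, limma, adjusted p = 6.35e-05) and liver 4.78-fold (adjusted p = 4.90e-05). Rspo2, which oocytes make during follicle growth, lay at -0.42 and -0.42 in ovary and was not well above background on any other array. The ovary was at least 32.3-fold above uterus and at least 28.7-fold above liver (limma, adjusted p = 0.000156 and 2.08e-05). Rspo2 entered the set through its ovary arrays alone, so the direction of these differences follows from how it entered. A called difference of Rspo2 between uterus and liver (1.47, adjusted p = 0.00538) compares tissues that were both below background and gives no fold. Rspo1, which acts in ovary determination, lay at 1.60 and 1.67 in uterus, -0.21 and -0.17 in ovary and -2.32 and -1.55 in liver, so that uterus was 3.54-fold above ovary and ovary 3.36-fold above liver (limma, adjusted p = 0.00202 and 0.000791).

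Of the 10 Frizzled receptors, 5 were higher in uterus than in both other tissues (Fzd1, Fzd2, Fzd6, Fzd7 and Fzd10), 2 in liver (Fzd4 and Fzd8) and 1 in ovary (Fzd3). Fzd10 lay at 1.58 and 1.74 in uterus, at -4.93 and -4.72 in ovary, and was not well above background in liver. Uterus exceeded ovary 89.6-fold (6.49, SE 0.24, limma, adjusted p = 6.92e-05) and liver at least 122-fold (adjusted p = 1.35e-05). Fzd2 was not well above background in liver either, and lay at 0.64 and 0.54 in uterus and -1.19 and -1.18 in ovary. Uterus was 3.43-fold above ovary (adjusted p = 0.00240) and at least 58.0-fold above liver, and ovary at least 16.9-fold above liver (limma, adjusted p = 1.44e-05 and 2.18e-05). Fzd10 and Fzd2 entered the set without their liver arrays, so their lower place in liver follows from that. Fzd6, which acts in planar polarity of hair and skin, lay at 1.24 and 1.22 in uterus, -0.87 and -1.07 in ovary and -2.07 and -2.46 in liver. Fzd1 was at or above 0 in all 3 tissues, 1.51 and 1.55 in uterus, 0.36 and 0.25 in ovary and 0.13 and 0.00 in liver, and ovary and liver were not called different (0.24, SE 0.11, limma, adjusted p = 0.111).

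Fzd3, which guides axons, was highest in ovary at 0.67 and 0.69, with -0.52 and -0.62 in uterus and -3.03 and -2.79 in liver (uterus minus ovary -1.25, SE 0.15, limma, adjusted p = 0.00240). Fzd4, the receptor of the vascular ligand norrin, lay at -0.17 and -0.38 in liver, -1.94 and -2.06 in ovary and -2.0 and -2.12 in uterus. Liver exceeded ovary 3.30-fold and uterus 3.44-fold (adjusted p = 0.000192 and 0.000181), while uterus and ovary overlapped (-0.06, SE 0.14, limma, adjusted p = 0.781). Fzd8 had the same order, with -1.03 and -0.47 in liver against -2.62 and -2.21 in ovary and -2.45 and -2.78 in uterus. Fzd7 lay at -0.44 and -0.55 in uterus, -1.69 and -1.38 in ovary and -4.29 and -4.37 in liver, but 1 of its 2 probes was not well above background in liver and the other gave -0.72 and -1.61 there. That other probe alone was not called between uterus and ovary (0.52, SE 0.24, adjusted p = 0.146) or between ovary and liver (0.44, limma, adjusted p = 0.158). Fzd5 lay between -3.80 and -2.62 and Fzd9 between -5.34 and -4.11, and neither was called between uterus and ovary (limma, adjusted p = 0.0571 and 0.0878). The Fzd5 level is the mean of 2 unlike probes. Its bright probe was well above background on all arrays, between -1.98 and -1.15, and was not called between uterus and ovary (0.04, limma, adjusted p = 0.911). Its dim probe, not well above background in liver, was called (1.20, adjusted p = 0.0288).

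The co-receptors, which beta-catenin responses to Wnts need, were above background everywhere. Lrp6 lay between 0.22 and 0.96 on all arrays, and only ovary minus liver was called (0.50, SE 0.15, limma, adjusted p = 0.0285), a call lost without the BHPF liver array or without either ovary array. The Lrp6 level is the mean of 2 probes, and for ovary minus liver the brighter one gave 0.06 (limma, adjusted p = 0.662). The other gave 0.94 (adjusted p = 0.0320). Lrp5 was highest in liver (0.61 and 0.77), then ovary (-0.08 and 0.12) and uterus (-0.47 and -0.36). Its difference of uterus minus ovary (-0.43, SE 0.12, limma, adjusted p = 0.0376) was not called when any of the 4 ovary or uterus arrays was left out, with adjusted p = 0.0996 to 0.270. Of the R-spondin receptors, Lgr4, which hepatocytes carry, was highest in liver at 1.12 and 0.58, with -0.52 and -0.43 in ovary and -0.89 and -0.99 in uterus. Lgr5, a marker of stem cells of several epithelia, was highest in uterus at 0.78 and 0.83, with -0.35 and -0.61 in ovary and -0.71 and -0.48 in liver, and was 2.44-fold higher in uterus than in ovary (limma, adjusted p = 0.00262). Lgr6 was low everywhere, between -4.93 and -3.35, and no tissue difference was called (adjusted p = 0.125 to 0.521).

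Among the decoys, Sfrp2, Sfrp4 and Wif1 were higher in uterus than in both other tissues. Sfrp2, a product of stromal cells, lay at 2.19 and 2.29 in uterus and -2.33 and -2.66 in ovary and was not well above background in liver, so that uterus exceeded ovary 26.6-fold and liver at least 181-fold (limma, adjusted p = 0.000115 and 1.35e-05). Its lower place in liver follows from how it entered the set. Sfrp4 lay at 1.67 and 1.55 in uterus, -0.81 and -1.22 in ovary and -4.65 and -4.74 in liver, the BHPF liver value not well above background. Its uterus excess was 6.18-fold over ovary (adjusted p = 0.000239) and 79.2-fold over liver (limma, adjusted p = 1.35e-05). Wif1, Wnt inhibitory factor, lay at 0.06 and 0.57 in uterus, -2.28 and -3.75 in liver and -5.80 and -5.63 in ovary. No 2 tissues overlapped, with uterus 65.6-fold above ovary (6.04, SE 0.47, limma, adjusted p = 0.000545) and 10.1-fold above liver (adjusted p = 0.00176).

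Sfrp1 ran the other way, with -1.34 and -1.26 in ovary, -2.62 and -2.63 in uterus, and -5.28 and -5.95 in liver, where the BHPF array was not well above background. Ovary was 2.50-fold above uterus (limma, adjusted p = 0.0121), a difference no longer called without the control ovary, BHPF ovary or control uterus array (adjusted p = 0.0720 to 0.154). Sfrp5 lay between -2.67 and -1.80 on all arrays and no tissue difference was called (adjusted p = 0.125 to 0.537). Of the Dickkopfs, Dkk2 and Dkk3 were highest in uterus. Dkk2 lay at 0.87 and 0.97 in uterus and -2.30 and -2.33 in ovary and was not well above background in liver, which gives 9.42-fold over ovary and at least 72.9-fold over liver (limma, adjusted p = 0.000313 and 1.35e-05). The lower place of Dkk2 in liver likewise follows from how it entered the set. Dkk3, the member of the family that does not bind the co-receptors, lay at 2.16 and 2.21 in uterus, 1.70 and 1.79 in ovary and -1.76 and -1.40 in liver. Dkk1 was well above background only in ovary, at -5.18 and -5.27, and Dkk4 only on the BHPF ovary array, at -5.51. Axin2, a scaffold that beta-catenin signalling switches on and that dampens it, lay at -1.18 and -1.06 in uterus, -2.21 and -2.37 in ovary and -3.18 and -3.39 in liver. The tissues did not overlap, with uterus 2.25-fold above ovary and ovary 1.99-fold above liver (limma, adjusted p = 0.00506 and 0.00366). The first of these calls was lost without either ovary array or without the BHPF uterus array, and the second without the control ovary array.

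The second question was whether BHPF changed these genes within a tissue. With 1 array per group no test was possible, and a gene was counted as changed at 2-fold or more. In liver, 34 of the 43 genes were evaluated, 1 was higher and 1 lower, where 6.53% of all 31973 features were higher and 1.04% lower (7.58% in either direction). In ovary, none of 41 genes reached 2-fold in either direction (0.713% of all features were higher and 0.584% lower, 1.3% together). In uterus, none of 39 genes did (1.93% and 0.787%, together 2.72%). The median log2 ratio of the set was 0.06 in liver, 0.04 in ovary and 0.04 in uterus, beside 0.07, 0.00 and 0.01 over all features. Of the genes detected with and without BHPF in a tissue, 16 of 30 in liver, 25 of 37 in ovary and 31 of 35 in uterus moved by no more than 2 SD of the spot noise, which are 53.3%, 67.6% and 88.6% beside 57.4%, 78.0% and 73.2% of all features. The uterus columns of the log2 table that the authors deposited are exchanged against the scanner files, so uterus ratios here follow the scanner files and would change sign under that table's headings.

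**Figure D3:**
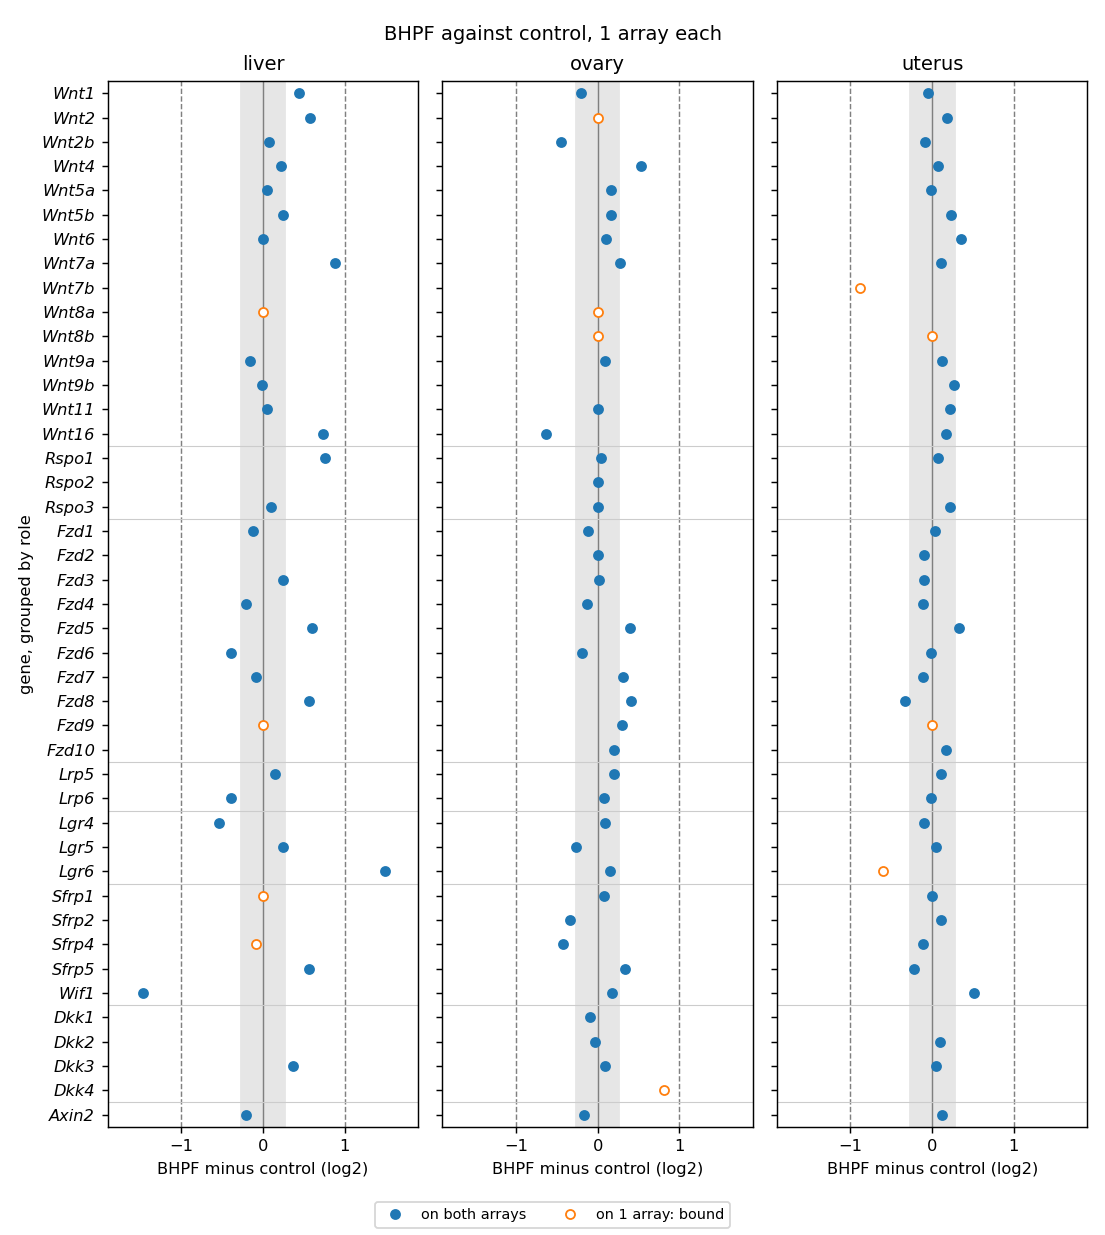
BHPF minus control log2 ratio of the 43 genes (rows, by role) in liver, ovary and uterus (panels), 1 array per group; the grey band is 2 SD of spot noise, dashed lines mark 2-fold, and open points are bounds for genes well above background on 1 array only, drawn at 0 where no difference could be resolved. Wif1 (-1.47) and Lgr6 (1.49) in liver lie beyond the 2-fold lines, and a gene below background on both arrays has no point.

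Wif1 was the gene that fell in liver, from a level of -2.28 to -3.75, an intensity of 710.1 against 245 and a 2.77-fold decrease. Both values were well above background, where the detection limit was -5.62 and -4.91. In ovary the same probe moved from -5.80 to -5.63 (0.17) and in uterus from 0.06 to 0.57 (0.51). Lgr6 was the gene that was higher in liver, at -4.93 in the control and -3.44 with BHPF, an intensity of 113 against 303 and a 2.81-fold difference. Both values were above the limit given for Wif1. In ovary Lgr6 lay at -3.50 and -3.35, and in uterus it was well above background only on the control array (-4.29), which gives a bound of -0.61. Each gene has a single probe, and the liver values have no replicate. On the same liver arrays 8 of 10 neutrophil markers were lower with BHPF by 2-fold or more, with a summed linear level of 23.8 against 55.5 (10 well above background in the control and 9 with BHPF), and 0 of 8 markers of liver endothelium and stellate cells changed by 2-fold. The part of these cells in the 2 liver results was not tested.

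At a threshold of 1.5-fold, 5 of the 34 liver genes were higher and 1 lower, beside 14.7% and 3.47% of all features, so the shares were near the background. Besides Lgr6 the higher ones were Wnt7a (0.88), Rspo1 (0.76), Wnt16 (0.74) and Fzd5 (0.59), and the lower one was Wif1. At the same threshold 2 of 41 genes were counted in ovary and 2 of 39 in uterus, beside 4.35% and 7.17% of all features. Wnt7a moved from -4.28 to -3.40 and Rspo1 from -2.32 to -1.55. Among mesothelial markers 6 of 6 were also higher on the BHPF liver array, by a median of 0.56 and none by 2-fold, with a summed linear level of 2.67 against 1.74, and their part in these values was not tested. The ratio of Lgr4 was -0.54. Of the agonists around the central vein, Wnt2 moved from -3.81 to -3.24 (0.57), beyond 2 SD of the spot noise, while Wnt9b (-0.01) and Rspo3 (0.09) lay within it. The other ligands that were called higher in liver than in both other tissues, Wnt11 (0.05) and Wnt5b (0.24), also lay within it. Probes disagreed for 2 receptors in liver. The probes of Fzd7 gave -0.88 (bright) and 0.71 (below background), and those of Lrp6 gave 0.24 and -1.03.

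In ovary the largest ratios were those of Wnt4, which moved from -0.27 to 0.27 (0.54), and Wnt16 (-0.63). The Wnt16 value came from its dim probe (-1.21, not well above background in ovary), while the other probe gave -4.85 and -4.90. Dkk4 passed the background call only with BHPF and its bound was 0.82. Of the 4 genes that were higher in ovary than in both other tissues, Wnt4 thus had the largest ratio. The others were the agonist Rspo2, at -0.42 on both arrays (0.00), the receptor Fzd3, at 0.67 and 0.69 (0.02), and the decoy Sfrp1, at -1.34 and -1.26 (0.08).

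In uterus the ratios were smallest, with a median size of 0.11 over the 35 genes measured on both arrays, beside 0.24 in liver and 0.16 in ovary. Wif1 had the largest of these, 0.51, followed by Wnt6 (0.35), Fzd8 (-0.33) and Fzd5 (0.33, from probes with -0.17 and 0.83). The epithelial ligand Wnt7a lay at 0.64 and 0.75 (0.11), the mesenchymal ligand Wnt5a at 2.06 and 2.04 (-0.02) and the feedback gene Axin2 at -1.18 and -1.06 (0.12). Wnt7b, well above background on the control array alone, had a bound of -0.88. The hepatocyte markers on the BHPF uterus array stood at 0.558% to 16.8% of their control liver level, with a median of 6.51%. That median share of a gene's own control liver level equals 28.1% of the BHPF uterus level of Lgr4, 25.8% of that of Wnt9b, 25.0% of that of Fzd4, 21.8% of that of Fzd8, 16.9% of that of Wnt8a and less for every other gene of the set. Over the range of the markers the value for Lgr4 runs from 2.41% to 72.4%. The uterus ratios of Lgr4, Wnt9b, Fzd4 and Fzd8 were -0.10, 0.27, -0.11 and -0.33. In the same tissue 3 of 7 evaluated adipocyte markers were lower with BHPF by 2-fold or more, with a summed linear level of 2.18 against 5.11. Of 10 neutrophil markers on the same array, 6 were lower, 4 of them by 2-fold or more, and 4 were higher (median -0.71, summed linear level 28.8 against 31.2). In ovary all 10 were lower, 5 of them by 2-fold or more (median -1.10, 11.47 against 13.93). Of all features, 0.787% were lower by 2-fold or more in uterus and 0.584% in ovary. The part of these cell types in the uterus and ovary ratios was not tested beyond these values.

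**Figure D4:**
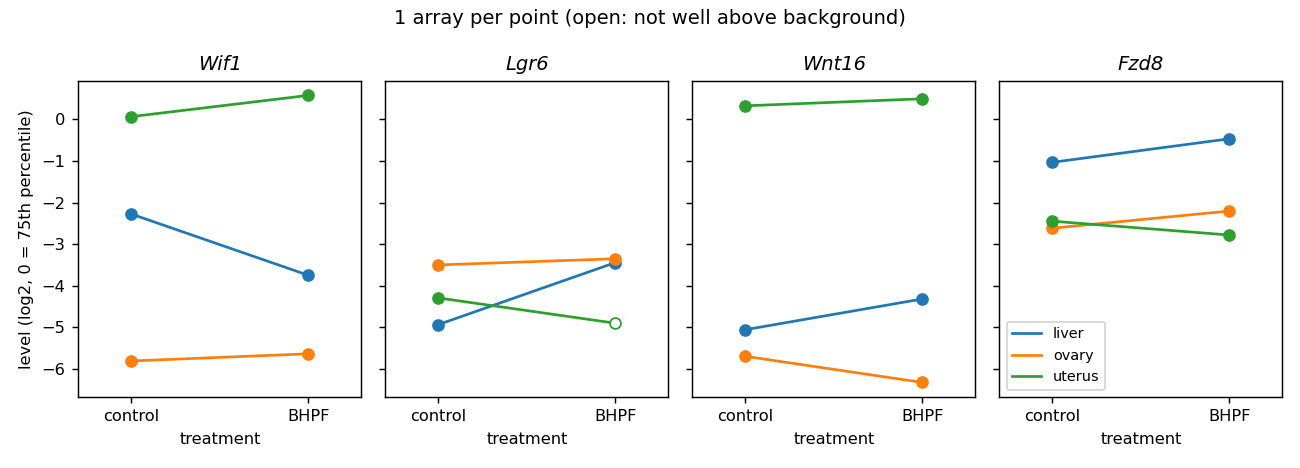
Levels (log2, 0 at the 75th percentile of the array) of Wif1, Lgr6, Wnt16 and Fzd8 on the control and BHPF array of each tissue, with 1 array per point and open points not well above background. Wif1 runs down in liver (-1.47) and up in uterus (0.51), and Lgr6 runs up in liver (1.49) to the level of the ovary.

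An effect of BHPF common to the 3 tissues was tested with limma over the 6 arrays. None of the 43 genes and none of the 38439 features (0.0%) had an adjusted p under 0.05, while 2 genes of the set and 2055 features had an unadjusted p under 0.05. The 2 genes were Fzd5 (0.44, SE 0.16, adjusted p = 0.740, higher in 3 of 3 tissues) and Wnt5b (0.21, SE 0.08, limma, adjusted p = 0.740, higher in 3 of 3 tissues). The Fzd5 values are means of 2 probes, which went opposite ways in uterus (-0.17 for the bright probe and 0.83 for the dim one). With the brightest probe of each gene in place of the mean, no gene of the set had an unadjusted p under 0.05. Wnt5b lay at 1.5 and 1.74 in liver, 0.32 and 0.47 in ovary and 0.86 and 1.1 in uterus, each a shift smaller than 2 SD of the spot noise. The median effect was 0.08 over the set and 0.07 over all features.

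A further 70 genes of the pathway, from secretion to nuclear targets, were listed by name, and 69 were well above background on some array. Of these, 26 were higher in uterus than in ovary and 4 lower (18.1% and 14.1% of all features). Against liver, 35 were higher in uterus and 16 lower (29.3% and 27.8% of all features). Between ovary and liver, 28 were higher in ovary and 19 lower (30.1% and 31.8%; limma, adjusted p under 0.05 throughout). The acyltransferase Porcn, without which Wnts are not secreted, lay at 1.09 and 1.35 in uterus, -1.17 and -0.95 in ovary and -1.28 and -1.44 in liver. Wls, the carrier that takes Wnts to the cell surface, fell in the order uterus (2.42 and 2.29), ovary (1.62 and 1.51) and liver (-0.64 and -0.99), while Notum, an enzyme that inactivates Wnts, was highest in liver (1.71 and 2.10). The secreted ligand of Fzd4, Ndp, lay at 0.19 and 0.58 in uterus and -5.37 and -5.51 in ovary (uterus minus ovary 5.83, limma, adjusted p = 9.15e-05). Ror2, a receptor for Wnt5a, lay at 0.71 and 1.16 in uterus and -0.66 and -0.57 in ovary and was not well above background in liver. Ctnnb1, which encodes beta-catenin itself, lay between 2.85 and 3.31 on all arrays.

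With BHPF, 1 of 61 of these genes was higher and 1 lower in liver by 2-fold or more (6.53% and 1.04% of all features). In ovary 1 of 67 was higher and none lower (0.713% and 0.584%). In uterus 3 of 69 were higher and none lower (1.93% and 0.787%). The changed liver genes were Lef1, a nuclear partner of beta-catenin that was well above background on the BHPF array only (bound 1.19), and Pygo1, a co-activator (-3.21 and -4.50). In ovary it was Draxin, a secreted inhibitor (-5.85 and -4.59). In uterus they were Lect2 (3.33), Cyp2e1 (2.65) and Cyp1a2 (a bound of 3.42), which are beta-catenin targets of hepatocytes and lay at 4.17, 5.24 and 4.13 on the control liver array. They were the only ones of 14 listed targets to reach 2-fold in uterus, where the median ratio of the 14 was 0.22. The other targets, which include Glul and Rhbg, stayed below 2-fold. Among them Sp5 had a ratio of 0.65, Myc 0.32, Ascl2 -0.03 and Ccnd1 -0.43. In liver the pericentral targets Glul, Cyp2e1 and Rhbg had ratios of 0.18, 0.04 and 0.17.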

How the data were processed

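RNA of 6 pools of 3 mice (control and BHPF liver, ovary and uterus) was hybridized to single-dye Agilent arrays. The deposited files come from Agilent Feature Extraction (version 11.5.1.1 per the file headers, 9.1 in the submitters' processing notes) and hold the authors' background-subtracted intensity values per spot, not normalized between arrays. A further table from the authors gives log2 expression from GeneSpring, as deposited. That table was set against the scanner values: over 36239 (liver), 41317 (ovary) and 38450 (uterus) probes with a single spot, liver and ovary columns differed from their own array by 1 constant within 0.001, while each uterus column did so from the array of the other treatment. The table therefore served as an alternative only. Scanner files were used under the conditions they were deposited with.

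Spots of control probes and those called outliers were dropped. Log2 intensities were averaged per probe and scaled by subtracting the array's 75th percentile over 55681 probes. Symbols came from transcript accessions matched to a RefSeq table (GRCm38.p6), for 26762 probes (48.1%). A gene's level is the mean over its probes well above background on any array, and probes without a symbol were kept as their own features. Within a tissue a feature needed 1 array well above background, and where the other was not, its ratio is a bound against the lowest intensity well above background of the other array, or its own value where higher. Between tissues the same bound (as "at least") replaced the fold where both arrays of a tissue were not well above background. Tissue differences and the common effect of BHPF were fitted with lmFit and eBayes with a trend (limma 3.58.1, R 4.3.3; 2 residual degrees of freedom) and adjusted by Benjamini-Hochberg over 38439 features. The procedure was tested on simulated data. The p-values measure the spread between these arrays, each of which is a pool of animals. No array was saturated at any probe and precision was limited by the number of arrays.

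The members, the gene lists and the tests were chosen with earlier results of these data known. Named were members at 2-fold or more within a tissue, the 5 with the highest control level, the 5 largest called tissue differences in each direction, members with a known place in these organs, and of the further pathway genes those at 2-fold and at most 5 per group. Alternatives covered the percentile, quantile normalisation, normexp (offset 50), the authors' table, the choice of probe, the filter on dim probes, the bound, the fold, the trend and each array left out. The authors' table with its uterus columns exchanged was added after the data had been seen.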

Additional observations from a re-analysis of the deposited data

Results flagged for a closer look

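For 4 genes the BHPF ratio lay beyond 2 SD of the spot noise in opposite directions in a pair of tissues, each with 1 array per group, so the difference between tissues was not tested. Wif1 had a log2 ratio of -1.47 in liver and 0.51 in uterus. Lgr6 had 1.49 in liver and a bound of -0.61 in uterus. Wnt16 had 0.74 in liver and -0.63 in ovary, and both values rest on its dim probe (1.11 and -1.21, not well above background in either tissue), as its other probe gave 0.36 and -0.05. Fzd8 had 0.56 in liver and 0.41 in ovary against -0.33 in uterus. In uterus these signs follow the scanner files.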

How the results depend on the processing

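The common effect of BHPF was called in 0 genes of the set under every alternative. With a threshold of 1.5-fold in place of 2-fold, 6 genes were counted in liver, 2 in ovary and 2 in uterus, near the shares of all features given with the liver results. With measured values in place of bounds, 2 were counted in ovary (Dkk4 and Wnt8b, neither well above background on both arrays). Under the authors' table as headed, uterus and ovary differed in 18 genes, of 32 that the table measured on all arrays (8721 of 29601 features). With its uterus columns exchanged they differed in 22 (9690 of 29601 features). Restricted to the 27 genes measured on all arrays, uterus and ovary differed in 19, uterus and liver in 23 and ovary and liver in 22. The share of all features is not given for this restriction. With the 49 probes as units the counts were 31, 36 and 34, beside 14416, 25430 and 27536 of all 43902 probes. Leaving out 1 array or 1 tissue gave 19 to 35, 29 to 34 and 27 to 33. A tissue with 1 array left was assumed to vary like the others. No direction of a named difference reversed. Of Wif1 and Lgr6 in liver, scaling by the 50th percentile gave -1.78 and 1.17, quantile normalisation -1.68 and 1.08, and normexp -1.08 and 1.04. The 50th percentile moved the median of all features in liver from 0.07 to -0.21 and that of the set from 0.06 to -0.19, and turned its sign relative to 0. Leaving out an ovary or uterus array lost 6 to 9 of the 28 calls between uterus and ovary (among them Axin2, Dkk3, Fzd7, Lrp5, Sfrp1, Wnt2, Wnt4, Wnt5b, Wnt7b and Wnt9b in 1 or more cases), and leaving out a liver array lost 0 and added 7. At most 4 calls were lost between uterus and liver and 5 between ovary and liver. With values set to the detection limit, Wnt8a was not called between uterus and liver (-0.51, adjusted p = 0.221). No paired analysis was possible because each group has 1 array and the labels carry no replicate numbers. Dim genes are limited by signal over background: 16 of the 43 genes were not measured on every array.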
